A study of Mus musculus with 25 samples.

Results

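The mitochondrial respiratory chain and the ATP synthase are described here gene by gene in 3T3-L1 adipocytes given CLA and in LA controls. 3T3-L1 is a line of mouse preadipocytes that turn into fat cells in culture, and the labels name all samples as adipocyte cultures. The genes were taken by symbol from the platform's annotation: the Nduf subunits of complex I, the 4 Sdh subunits of complex II, the Uqcr genes and Cyc1 of complex III, the nuclear Cox subunits of complex IV and the Atp5 genes of the ATP synthase, counted as complex V. This gave 165 probe sets for 82 of the 18194 genes with a probe set of their own. Of these 82 genes, 81 passed the filter on low values (35 of complex I, 4 of II, 9 of III, 16 of IV and 17 of V), and Cox7b2 did not. 74 genes exceeded the array median on all 25 arrays, and 1 of the 81 exceeded it in arrays of one treatment only. Another 9 probe sets carried one of these symbols together with another gene's and were not used.

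RNA was measured on 25 one-colour Affymetrix arrays of cultured cells. CLA and LA, which usually stand for conjugated linoleic acid and linoleic acid, are not spelled out in the labels, and neither dose nor isomer is stated in the sources used here. The 4 h groups held 2 CLA and 3 LA arrays. Each of the groups at 8 h and 24 h held 3 arrays, and each at 12 h held 4. The labels call them biological replicates, and all come from this 1 cell line. Of the 18 adipocyte markers tested, 14 were called lower under CLA at 24 h in the array-set fit (3.72% of all genes called lower). That fit was chosen after its counts had been seen. The planned fit called 0 of the markers (0% of all genes), and a fit of the 12 and 24 h arrays alone called 6 (0.963% of all genes). These fits are described below.

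Complex I takes electrons from NADH and complex II takes them from succinate, a step of the tricarboxylic acid cycle. Both pass them through coenzyme Q to complex III, cytochrome c and complex IV, where oxygen is reduced, while complexes I, III and IV pump protons. Complex V uses the proton gradient to make ATP. Most subunits are encoded in the nucleus, and only these are described here. White adipocytes build up their mitochondria as they differentiate, and brown adipocytes hold far more of them.

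The arrays differed in ways that the labels do not name. Mean intensity ran from 72.6 to 149.2 over the 25 arrays, and the actin 3′ over 5′ signal, which rises when RNA is degraded, stood highest at 8.11 (replicate 1 of LA at 4 h) and 5.67 (replicate 1 of LA at 12 h). At 24 h it was 3.27, 1.54 and 1.56 in the CLA arrays and 3.32, 1.64 and 1.61 in the LA arrays of the same numbers. At that time it was therefore close within each pair of arrays with the same number. This did not hold for replicate 1 at 12 h, where the CLA array was at 2.83. 2 ways of allowing for such array differences gave very different counts. The planned fit in limma had 5 array sets from average linkage clustering as a term, which put 20 arrays in 1 set. LA replicate 3 and CLA replicate 1 of 4 h and LA replicate 3 of 8 h were each alone in a set. These arrays therefore did not bear on the planned differences. The array-set fit used 5 sets from Ward's clustering instead. It was chosen after its counts had been seen, and its sets were made from the same values. At 12 and 24 h its sets pair each CLA array with the LA array of the same number, and the differences there are equal in the 2 fits. Their standard errors are not, with a median over the subunit genes at 24 h of 0.13 in the array-set fit and 0.25 in the planned fit. Below, "fell" and "rose" mean an adjusted p under 0.05 in the array-set fit. In the planned fit 0 subunit genes passed that threshold at any time, and for the 40 genes that fell at 24 h its adjusted p in limma ran from 0.453 to 0.915. The planned p is printed for some genes only.

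At 24 h the respiratory chain and ATP synthase genes lay lower under CLA, in all 5 complexes. The median log2 difference, CLA minus LA, was -0.48 over the 81 genes and 0.01 over all 14428 genes tested. 78 of the 81 differences were below 0, against 48.9% of all genes. In 72 of the 81 genes the CLA array was below the LA array of the same number in each of the 3 pairs, which was so for 21.8% of all genes. In 39 genes every CLA array lay below every LA array, against 7.05% of all genes. The array-set fit called 40 of them lower and 0 higher, with 3.72% of all genes called lower and 0.88% higher. The planned fit called 0 in either direction, and 0% of all genes. At an unadjusted p under 0.05 it had 23 lower and 0 higher, where 4.32% of all genes were lower and 2.33% higher. A fit of the 12 and 24 h arrays alone, with the replicate number as a block, called 4 subunit genes lower at 24 h (Uqcrfs1, Sdhb, Ndufs3 and Ndufb8), with 0.963% of all genes called lower. The same fit with a variance trend called 47, and its share of all genes called is not given here. Without any set term the count was 0, and on values as deposited the array-set fit called 1.

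**Figure D1:**
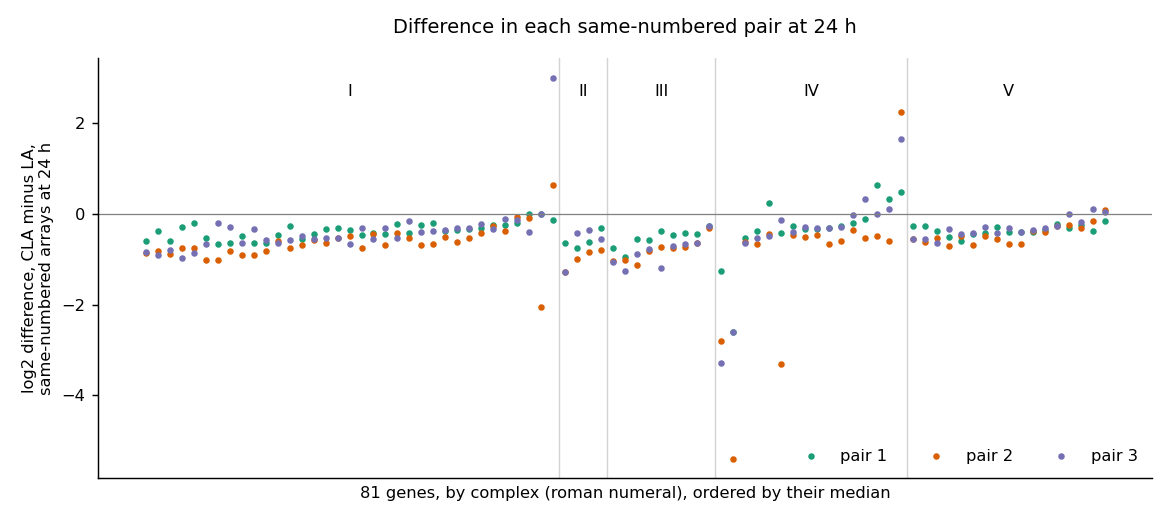
Log2 difference at 24 h, CLA minus LA, within each pair of arrays of the same replicate number, for the 81 genes grouped by complex and ordered by their median. Points below 0 are lower under CLA, which holds for 76, 78 and 73 genes in pairs 1, 2 and 3. The points farthest from 0 belong to genes with low log2 levels, such as Cox8b and Ndufb4.

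By complex, the median difference at 24 h was -0.50 for complex I, -0.66 for II, -0.72 for III, -0.37 for IV and -0.42 for V. The array-set fit called 17 of 35 genes of complex I, 4 of 4 of II, 8 of 9 of III, 6 of 16 of IV and 5 of 17 of V. Of all genes it called 3.72% lower. The planned fit at an unadjusted p under 0.05 had 8, 2, 5, 3 and 5 of them, with 4.32% of all genes lower. The difference between complexes was not tested.

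Complex II, succinate dehydrogenase, is the entry point shared with the tricarboxylic acid cycle. Sdhb, its iron-sulfur subunit, had log2 levels of 10.72, 10.01 and 9.70 in the CLA arrays and 11.35, 11.28 and 10.98 in the LA arrays at 24 h. The groups did not overlap, and replicate 1 was the closest pair. The difference was -1.06 ± 0.16 (SE), with an adjusted p of 0.00203 in the array-set fit, 0.0487 with the replicate block and 0.531 in the planned fit of limma. Sdhd, a membrane anchor, was at 9.07, 9.18 and 9.51 under CLA and at 9.82, 10.17 and 9.93 under LA, again without overlap. Its difference was -0.72 ± 0.17 (adjusted p of 0.024 in the array-set fit and 0.453 in the planned fit of limma).

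Sdhc, the other anchor, was at 9.02, 9.42 and 9.02 under CLA and at 9.63, 10.25 and 9.37 under LA. Here CLA replicate 2 lay above LA replicate 3, and the difference was -0.60 ± 0.13 (adjusted p of 0.0206 in the array-set fit of limma). Sdha, the flavoprotein that binds succinate, was at 9.80, 9.77 and 9.45 under CLA and at 10.12, 10.57 and 10.01 under LA, without overlap. Its difference, the smallest of the 4, was -0.56 ± 0.15 (adjusted p of 0.0437 in the array-set fit of limma).

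The promoters of Sdhb and Sdhd, the 2 genes of complex II with the smallest p in the planned fit, are shown because such genes are known to share binding motifs of a few transcription factors. They run from 250 bases before to 50 bases after the gene's start (RefSeq, build GRCm38.p6), at chr4:140961021-140961320 on the plus strand and chr9:50603800-50604099 on the minus strand, each written 5′ to 3′ along the gene. Capitals mark exact matches on either strand to the motifs of GABP (CCGGAAG), NRF1 (GCGC, then 2 bases of any kind, then GCGC) and the estrogen related receptors (TCAAGGTCA).
Sdhb: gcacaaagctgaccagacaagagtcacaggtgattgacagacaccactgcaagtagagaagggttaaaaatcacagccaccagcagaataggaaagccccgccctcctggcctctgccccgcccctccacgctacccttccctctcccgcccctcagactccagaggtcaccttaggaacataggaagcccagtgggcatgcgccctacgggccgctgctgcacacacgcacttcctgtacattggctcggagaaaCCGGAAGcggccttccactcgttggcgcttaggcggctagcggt
Sdhd: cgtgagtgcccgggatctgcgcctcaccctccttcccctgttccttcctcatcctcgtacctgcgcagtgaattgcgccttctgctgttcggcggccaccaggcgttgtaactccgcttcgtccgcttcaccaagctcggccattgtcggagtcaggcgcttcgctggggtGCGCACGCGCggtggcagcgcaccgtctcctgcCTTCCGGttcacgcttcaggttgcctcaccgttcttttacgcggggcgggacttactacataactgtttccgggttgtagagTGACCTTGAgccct
The Sdhb promoter held 1 match, to GABP, and the Sdhd promoter held 1 match to each of the 3 motifs, with no overlap between them. A match is a description of these letters and not a measured site.

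Of the 82 genes, 66 had a promoter in the RefSeq table. The NRF1 motif was in 16 of these 66 genes, in 23.9% of their 71 promoter sequences and in 6.23% of all 32851 promoters of that length. The GABP motif was in 17 genes (23.9% of their sequences, 8.86% of all). The YY1 motif (AAGATGGC) was in 9 genes (12.7% of their sequences, 2.75% of all) and the estrogen related receptor motif in 2 genes (2.82% of their sequences, 0.423% of all). Among the genes with a promoter, 31 fell at 24 h, of which 10 held the NRF1 motif, 10 the GABP motif and 3 the YY1 motif. Of the 34 others tested, 6, 7 and 6 held these motifs. No test was run on these counts.

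Complex III carries electrons from coenzyme Q to cytochrome c. Uqcrfs1, its Rieske iron-sulfur protein, was at 10.40, 10.52 and 9.53 under CLA and at 11.36, 11.54 and 10.78 under LA at 24 h. All CLA arrays lay below all LA arrays, and the within-pair differences were -0.96, -1.02 and -1.25. The fitted difference was -1.08 ± 0.14, with an adjusted p of 0.000791 in the array-set fit, 0.0352 with the replicate block and 0.520 in the planned fit of limma. Uqcr11, a small accessory subunit, was at 9.94, 9.98 and 9.50 under CLA and at 10.68, 11.01 and 10.55 under LA. Again no values overlapped, with a difference of -0.94 ± 0.17 (adjusted p of 0.00606 in the array-set fit and 0.453 in the planned fit of limma).

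Uqcrq, another small subunit, was at 10.45, 10.00 and 10.03 under CLA and at 10.99, 11.12 and 10.90 under LA, a difference of -0.85 ± 0.18 (adjusted p of 0.0171 in the array-set fit of limma). The mean of all probe sets of the gene gave 0.30 instead, a change of sign. The other 3 of its probe sets are dim, with mean log2 levels of 2.43 to 4.14. Cyc1 (cytochrome c1), Uqcrc1 and Uqcrc2 (core proteins), Uqcr10 and Uqcrh also fell, by 0.58 to 0.76 on the log2 scale. The exception was Uqcrb, a subunit near the coenzyme Q site, at 12.68, 12.73 and 12.42 under CLA and at 12.95, 13.05 and 12.68 under LA. Its difference of -0.28 ± 0.13 had an adjusted p of 0.253 in the array-set fit of limma, and CLA replicate 2 lay above LA replicate 3.

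Complex I has a peripheral arm that oxidises NADH and a membrane arm that pumps protons, with accessory subunits on both. The 2 members with the smallest p in the planned fit are accessory subunits of the membrane arm. Ndufb8 was at 10.05, 9.77 and 9.78 under CLA and at 10.65, 10.66 and 10.57 under LA at 24 h. Every LA value lay above every CLA value, with an SD of 0.05 over the LA arrays and 0.16 over the CLA arrays. The difference was -0.76 ± 0.13, with an adjusted p of 0.00481 in the array-set fit, 0.0487 with the replicate block and 0.453 in the planned fit of limma.

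Ndufb10 was at 10.13, 10.02 and 9.84 under CLA and at 10.76, 10.83 and 10.42 under LA, without overlap, with a difference of -0.68 ± 0.13 (adjusted p of 0.00918 in the array-set fit of limma). Ndufs3, a core subunit of the peripheral arm, had the largest fall of the complex in the array-set fit, -0.77 ± 0.12 (adjusted p of 0.00203 in limma). The flavoprotein subunits Ndufv1 and Ndufv2, which lie at the NADH site, fell by 0.61 and 0.53. Ndufs1, a further core subunit of that arm, fell by 0.74. Ndufa12 and Ndufa7, both accessory subunits, were near 0 at -0.13 and -0.16 and did not pass.

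Ndufa4 is counted with complex I by its symbol, although it was later assigned to complex IV. It was at 11.22, 11.28 and 10.68 under CLA and at 11.58, 11.76 and 11.35 under LA, and its difference of -0.50 ± 0.17 did not pass (adjusted p of 0.112 in the array-set fit of limma). Ndufa4l2, its relative known from hypoxia, was at the floor of the scale in all 3 CLA arrays and in 2 of the 3 LA arrays at 24 h. The highest difference of complex I was that of Ndufb4, 1.17 ± 0.87, which did not pass (adjusted p of 0.577 in limma). Ndufb4 was above the array median on 3 of the 25 arrays, and with the larger offset of 57.7 its difference was 0.07.

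**Figure D2:**
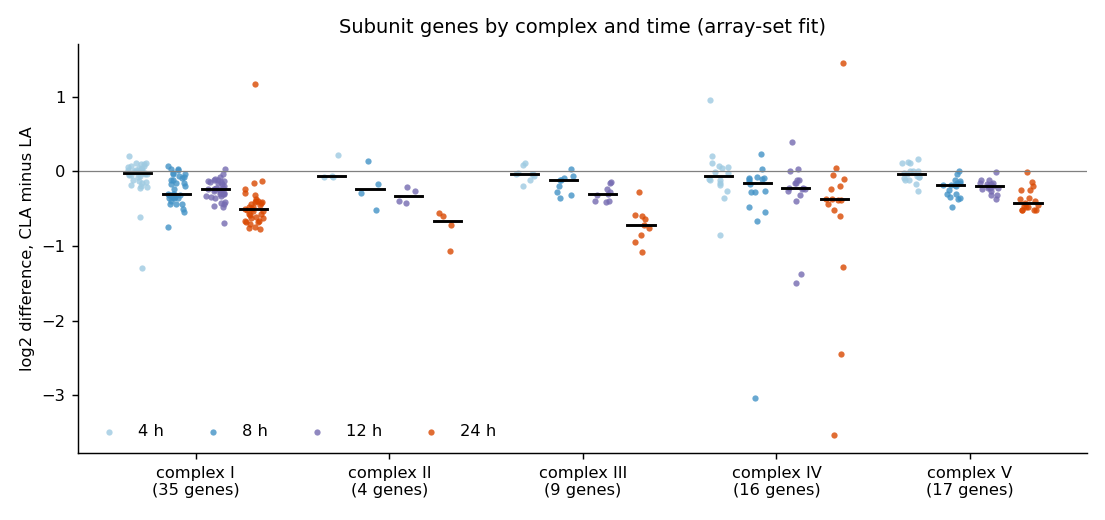
Log2 difference, CLA minus LA, of each subunit gene in the array-set fit, by complex and by time, with the median as a black bar. The medians at 24 h run from -0.72 for complex III to -0.37 for complex IV, and those at 4 h lie between -0.07 and -0.02.

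Complex IV, cytochrome c oxidase, has subunits that come as pairs of isoforms, one made in most tissues and one made in fewer. The widely made isoforms were bright. Cox4i1 was at 11.76, 11.51 and 11.65 under CLA and at 12.07, 12.18 and 11.96 under LA at 24 h, without overlap, and fell by 0.43. Cox8a was at 10.42, 10.76 and 10.27 under CLA and at 10.95, 11.38 and 10.92 under LA, also without overlap, and fell by 0.60. Cox6a1 was at 12.34, 12.19 and 11.86 under CLA and at 12.61, 12.65 and 12.26 under LA, where CLA replicate 1 lay above LA replicate 3, and it fell by 0.38. Their adjusted p ran from 0.0335 to 0.0354 in the array-set fit of limma. Cox7a2 was at 11.76, 11.58 and 11.38 under CLA and at 12.10, 12.05 and 11.69 under LA, and its difference of -0.37 did not pass (adjusted p of 0.0568 in the array-set fit of limma). Cox5b, of the other nuclear subunits, was at 11.61, 11.61 and 11.21 under CLA and at 11.99, 12.27 and 11.74 under LA, a difference of -0.52 ± 0.10 (adjusted p of 0.0101 in limma).

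The muscle and brown fat isoforms Cox7a1 and Cox8b had the largest differences of all 81 genes at 24 h on the log2 scale with the small offset. With the larger offset Cox8b ranked behind Uqcrfs1, Sdhb, Uqcr11 and Uqcrq. Cox7a1 was at 4.28, 4.30 and 3.83 under CLA and at 5.54, 7.11 and 7.11 under LA at 24 h. The groups were separate, and the difference of -2.45 ± 0.38 had an adjusted p of 0.00242 in the array-set fit, 0.0521 with the replicate block and 0.520 in the planned fit of limma. With the larger offset, which shrinks log2 differences at low intensity, it was -1.09. Cox8b was at 2.30, 1.32 and 1.65 under CLA and at 4.89, 6.72 and 4.24 under LA, also separate, with a difference of -3.53 ± 0.73 (adjusted p of 0.0136 in the array-set fit and 0.763 in the planned fit of limma) and -0.77 with the larger offset. The SD over the LA arrays was 1.29 for Cox8b and 0.91 for Cox7a1, against 0.22 for Cox7a2.

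The promoters of these 2 isoforms, shown for contrast with those of complex II, held none of the 4 motifs in this window, at chr7:30183921-30184220 on the plus strand and chr7:140900397-140900696 on the minus strand (RefSeq, build GRCm38.p6, 5′ to 3′ along the gene, with no capitals since nothing matched).
Cox7a1: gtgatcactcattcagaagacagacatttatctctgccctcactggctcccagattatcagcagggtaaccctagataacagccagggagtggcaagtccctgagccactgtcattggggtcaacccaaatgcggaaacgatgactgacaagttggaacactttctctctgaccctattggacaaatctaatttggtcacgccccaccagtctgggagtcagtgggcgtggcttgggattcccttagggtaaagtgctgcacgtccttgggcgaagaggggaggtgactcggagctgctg
Cox8b: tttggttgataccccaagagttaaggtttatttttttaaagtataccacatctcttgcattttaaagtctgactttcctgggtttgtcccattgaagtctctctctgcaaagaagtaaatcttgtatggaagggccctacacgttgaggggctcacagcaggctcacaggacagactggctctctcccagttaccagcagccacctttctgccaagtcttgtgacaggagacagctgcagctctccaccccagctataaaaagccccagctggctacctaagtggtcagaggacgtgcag
The absence of these letters says nothing about binding of the factors elsewhere.

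Both isoforms also varied widely from array to array at the earlier times, in both treatments. At 8 h Cox8b was at 9.19, 4.69 and 2.71 under CLA and at 9.65, 5.07 and 9.66 under LA. At 12 h it was at -0.02, 4.83, 2.75 and 8.97 under CLA and at 2.81, 6.36, 3.36 and 9.99 under LA. The differences between 12 h arrays of the same number were -2.83, -1.53, -0.61 and -1.02, and replicate 4 was the highest under both treatments. Cox4i2 and Cox6a2, the tissue-restricted partners of Cox4i1 and Cox6a1, were dim. Cox4i2 was at 2.90, 2.63 and 3.04 under CLA and at 2.42, 0.38 and 1.38 under LA. It was the highest member of complex IV at 1.46 ± 1.0 and the one gene with every CLA array above every LA array (5.22% of all genes), but it did not pass, it was above the array median on 3 of 25 arrays, and its difference was 0.10 with the larger offset. Cox6a2 was at 4.57, 4.51 and 5.05 under CLA and at 3.93, 4.99 and 5.05 under LA, with a difference of 0.05.

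**Figure D3:**
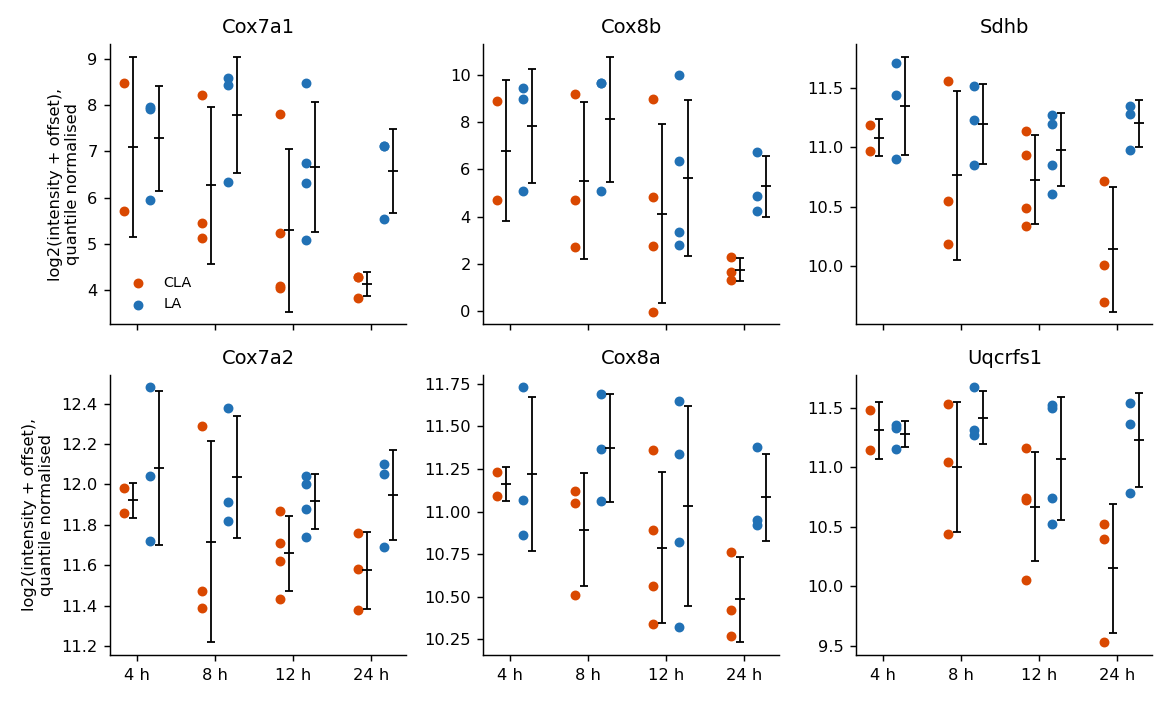
Log2 level of 6 subunit genes on every array (points), with mean and SD beside them, by time. CLA is left of LA. The tissue-restricted isoforms Cox7a1 and Cox8b spread over several log2 units within groups, while Sdhb and Uqcrfs1 spread less. At 24 h the groups do not overlap except for Cox7a2, where CLA replicate 1 (11.76) lies above LA replicate 3 (11.69). Each panel has its own vertical range.

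Complex V has an F1 head that makes ATP, a stalk and a membrane part with the c ring. Atp5d, the delta subunit of the central stalk, was at 10.65, 10.69 and 10.57 under CLA and at 11.25, 11.18 and 11.02 under LA at 24 h. No values overlapped, and the difference was -0.51 ± 0.10 (adjusted p of 0.0081 in the array-set fit and 0.471 in the planned fit of limma). Atp5k, subunit e of the membrane part, was at 10.91, 10.44 and 10.77 under CLA and at 11.41, 11.15 and 11.11 under LA, with a difference of -0.52 ± 0.12 (adjusted p of 0.0216 in the array-set fit of limma). Atp5a1, the alpha subunit of the head, Atp5o, which joins head and peripheral stalk, and Atp5mpl also fell, by 0.48 to 0.51.

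Atp5b, the catalytic beta subunit, missed the threshold with a difference of -0.45 ± 0.12 (adjusted p of 0.0502 in the array-set fit of limma). The 3 genes of the c ring were among the smallest differences of the complex. Atp5g3 was at -0.25 and Atp5g1 at -0.19, and neither passed. Atp5g2 was at 10.76, 10.74 and 11.04 under CLA and at 10.92, 10.65 and 11.00 under LA, so the groups lay within each other, with a difference of -0.01 ± 0.10, the highest of the complex.

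At the earlier times the differences were smaller. At 4 h the median over the subunit genes was -0.03 in the array-set fit and -0.14 in the planned fit, 52 of 81 differences were below 0 (48.8% of all genes) and 5 genes had every CLA array below every LA array (5.38% of all genes). The planned and array-set fits of limma called 0 genes, with 0.0139% of all genes called lower in either. At an unadjusted p under 0.05 the planned fit had 0 lower (2.25% of all genes) and the array-set fit 1 (4.94% of all genes).

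At 8 h the median was -0.19 in the array-set fit and -0.38 in the planned fit, which there used only replicates 1 and 2 of LA. 72 of 81 differences were below 0 (52.7% of all genes), and 17 genes had every CLA array below every LA array (7.15% of all genes). Both fits of limma called 0, where 0% of all genes were called lower in the planned fit and 0.561% in the array-set fit, with 27 lower at an unadjusted p under 0.05 in the array-set fit (8.04% of all genes) and 7 in the planned fit (3.17% of all genes). The median difference between arrays of the same number was -0.16, -0.25 and -0.70 for replicates 1, 2 and 3. For replicate 3 the CLA and the LA array came from different array sets, and the median difference over all genes between them was -0.16.

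At 12 h the median was -0.23 in both fits, 78 of 81 differences were below 0 (49.9% of all genes), and 33 genes were lower in each of the 4 pairs (12.5% of all genes). In 2 genes every CLA array lay below every LA array (1.16% of all genes). The array-set fit called 7 lower and 0 higher, with 2.4% of all genes called lower and 2.29% higher. The planned fit called 0 (0% of all genes lower) and had 4 at an unadjusted p under 0.05 (3.76% of all genes), and the replicate block on the 12 and 24 h arrays called 0 (0.236% of all genes). Without 1 array the array-set fit called 0 to 14, with 0 when LA replicates 2 or 3 or CLA replicate 2 were left out. Pair medians were -0.04, -0.50, -0.23 and -0.20. In the first of these pairs the actin 3′ over 5′ signal was 2.83 under CLA and 5.67 under LA, and its part was not tested.

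The 5 genes with the smallest p at 12 h in the array-set fit were Ndufb3, Ndufb6, Ndufc2 and Ndufb10, accessory subunits of the membrane arm of complex I, and Cox7a1. Ndufb3 was at 10.07, 9.29, 9.24 and 9.25 under CLA and at 10.34, 10.32, 10.16 and 9.78 under LA, a difference of -0.69 ± 0.14 (adjusted p of 0.0152 in the array-set fit of limma). CLA replicate 1 lay above LA replicate 4 and the other CLA arrays lay below every LA array. Ndufb6 was at 10.44, 10.09, 9.25 and 10.33 under CLA and at 10.68, 10.76, 10.02 and 10.53 under LA, a difference of -0.47 ± 0.10. Ndufc2 was at 11.15, 10.42, 10.61 and 10.56 under CLA and at 11.24, 11.11, 10.97 and 11.17 under LA, a difference of -0.44 ± 0.10. In both genes the groups overlapped, but each CLA array was below the LA array of its number.

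Ndufb10 was at 10.12, 10.07, 9.84 and 10.66 under CLA and at 10.37, 10.80, 10.42 and 10.93 under LA, a difference of -0.46 ± 0.11. Cox7a1 was at 4.09, 4.06, 5.25 and 7.80 under CLA and at 5.09, 6.76, 6.33 and 8.47 under LA, a difference of -1.37 ± 0.33 and of -0.65 with the larger offset. Replicate 4 was the highest array in both treatments for both genes. Cox5a and Atp5o were the others that fell at 12 h, by 0.40 and 0.37. At 24 h the difference of Cox5a was -0.19 and did not pass (adjusted p of 0.444 in the array-set fit of limma). Its probe sets disagreed: the other 2, also above the array median on all 25 arrays, were at -0.29 and -0.18 at 12 h (adjusted p of 0.117 and 0.432 in limma over all probe sets) and at -0.43 and -0.48 at 24 h (adjusted p of 0.0386 and 0.0316).

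**Figure D4:**
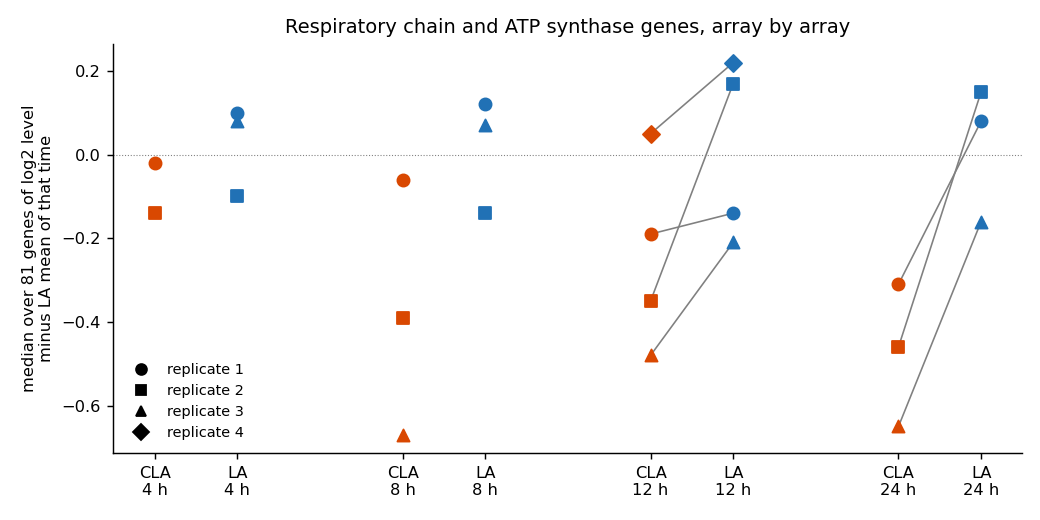
Median over the 81 genes of the log2 level minus the LA mean of that time, on every array. CLA is left of LA, symbols give the replicate number, and lines join arrays of the same number at 12 and 24 h. At 24 h the CLA arrays lie at -0.31, -0.46 and -0.65 and the LA arrays at 0.08, 0.15 and -0.16, while at 12 h CLA replicate 4 lies at 0.05, above 2 LA arrays.

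Whether the CLA effect differed between 24 h and 12 h was tested directly. The median of that difference was -0.25 over the subunit genes and -0.02 over all genes, and 74 of 81 were below 0 (52.5% of all genes). In limma, 0 genes passed in the planned fit (0 lower at an unadjusted p under 0.05, against 1.14% of all genes) and 0 in the array-set fit (0% of all genes, and 14 lower, against 2.9% of all genes, and 0 higher at an unadjusted p under 0.05). The smallest p were those of Sdhb, at -0.81, and Uqcrfs1, at -0.68, with adjusted p of 0.975 and 1 in the array-set fit of limma. The change with time within each treatment, 24 h minus 12 h, had a median of -0.16 in CLA arrays and 0.13 in LA arrays in the array-set fit. Here too 0 genes passed in either fit, with 12 lower and 1 higher in CLA arrays (3.9% and 3.33% of all genes) and 2 lower and 5 higher in LA arrays (1.67% and 2.17% of all genes) at an unadjusted p under 0.05 in the array-set fit. Each time had its own arrays.

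The authors' deposited table, which combines the arrays of a group by a method of its own and whose direction was read from the values, gave a median ratio of CLA to LA of 0.932 at 4 h, 0.775 at 8 h, 0.843 at 12 h and 0.701 at 24 h over the 81 genes. In the authors' deposited table the unadjusted p was under 0.05 with a lower level for 2 genes at 4 h (0.381% of all genes), 28 at 8 h (3.67%), 13 at 12 h (2.31%) and 57 at 24 h (3.75%), and 0 genes were higher at that p at these times. Uqcrh had a ratio of 0.437, Uqcrfs1 of 0.478, Sdhb of 0.502 and Uqcr11 of 0.521 at 24 h in the authors' deposited table. For Uqcrh that is a log2 ratio of -1.19, while its difference in the array-set fit was -0.58. Cox7a1 had a ratio of 0.145 and Cox8b of 0.0765 there, with p-values of 0.0219 and 0.322 in the authors' deposited table.

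Where a gene had more than 1 probe set, the others gave a check that the choice of probe set did not use. The 40 genes called at 24 h had 37 further probe sets, of which 27 were above the array median on all 25 arrays. All 27 had a difference below 0, and 17 of them passed in the array-set fit of limma. Of all 37, 3 were above 0. The 41 genes not called had 33 further probe sets above the median on all 25 arrays, of which 32 were below 0 and 7, of 5 genes, passed as lower. Probe sets of 1 gene measure the same RNA and are not replicates. In the array-set fit, 7 of the 40 genes passed whichever single array of 24 h was left out (Atp5d, Cox7a1, Cyc1, Ndufb8, Ndufs3, Sdhb and Uqcrfs1). The count was 7 without CLA replicate 2 and 10 without LA replicate 2, the pair with the largest median difference.

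Other genes of the pathway lay lower at 24 h as well, in counts of the array-set fit to be read against its 3.72% of all genes called lower and 0.88% higher. Of 12 electron carriers and entry points 5 fell and 0 rose (median -0.47), among them Etfdh, which passes electrons from fat oxidation to coenzyme Q (-0.83 ± 0.18), Ndufab1, the mitochondrial acyl carrier protein that is also part of complex I (-0.77 ± 0.14), Etfb (-0.58 ± 0.13) and Cycs, cytochrome c (-0.44 ± 0.12). Of 12 genes of coenzyme Q synthesis 4 fell and 0 rose (median -0.50): Coq8a (-2.34 ± 0.45), Coq5 (-1.19 ± 0.20), Coq3 (-0.94 ± 0.18) and Coq9 (-0.78 ± 0.13). The difference of Coq8a was -1.32 with the larger offset. Coq8a, Coq5 and Coq9 had also fallen at 12 h, by 2.17, 0.71 and 0.54.

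Assembly factors build the complexes without staying in them. Of 13 factors of complex I 4 fell (median -0.45), Ndufaf1, Foxred1, Ecsit and Acad9, by 0.71 to 0.80. Of 9 factors of complexes II and III only Sdhaf1 fell (median -0.25), and of 21 factors of complex IV 3 fell, Cox11, Cox19 and Higd1a (median -0.27). Of 11 genes of ATP synthase assembly and ATP export 3 fell, Tmem70, Atpaf2 and Slc25a5, the ADP/ATP carrier (median -0.24). In these 4 lists 0 genes rose, while of all genes 3.72% were called lower and 0.88% higher. With the replicate block on the 12 and 24 h arrays, Cox19 alone among these 4 lists, the electron carriers and coenzyme Q synthesis was called lower at 24 h (adjusted p of 0.0487 in limma).

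Among 14 regulators of mitochondrial genes 1 fell and 1 rose at 24 h (3.72% and 0.88% of all genes). They were Pparg, the nuclear receptor of adipocyte differentiation (-0.88 ± 0.16), and Pprc1, a relative of the PGC-1 coactivators (0.76 ± 0.17). At 12 h Ppargc1b, which encodes the coactivator PGC-1 beta, had fallen by 1.25 and Pparg by 0.54, while Pprc1 and Myc had risen by 1.03 and 0.95. The planned fit of limma called 0 genes of these lists at either time. With the replicate block Pparg was called at 24 h and Pprc1 and Myc at 12 h.

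The enzymes of the tricarboxylic acid cycle without the Sdh genes had a median of -0.60 over 12 genes at 24 h. Of these, 10 fell (3.72% of all genes), from Idh3a, a subunit of the NAD-dependent isocitrate dehydrogenase (-0.92 ± 0.18), to Mdh2, malate dehydrogenase (-0.42 ± 0.10). The planned fit and the replicate block called 0 of these enzymes. The 76 mitochondrial ribosomal protein genes had a median of -0.27, against -0.48 for the subunit genes. That these groups differ from the respiratory chain genes was not tested.

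Markers of the fat cell also lay lower under CLA at 24 h. Of 18 adipocyte markers tested 14 fell and 0 rose at 24 h in the array-set fit (3.72% of all genes called lower), with a median difference of -1.24, while the planned fit called 0 and the replicate block 6. Among the 14 were Slc2a4, the insulin-responsive glucose transporter (-2.55 ± 0.31), Fasn, fatty acid synthase (-2.01 ± 0.27), and Adipoq, adiponectin (-0.78 ± 0.17). The summed log2 level of the 18 was 152.5 to 175.5 in the CLA arrays and 182 to 196.7 in the LA arrays. Of 13 preadipocyte and fibroblast markers 0 passed, with a median of 0.31 and a summed log2 level of 142.4 to 149.3 under CLA and 138 to 146.7 under LA. Of 6 macrophage markers 0 passed (median 0.30), with a summed log2 level of 27.5 to 29.0 under CLA and 23.7 to 26.7 under LA. Of the list, Adgre1, Csf1r and Cd14 were above the array median on all 25 arrays, and Ptprc and Itgam did not pass the filter on low values. Cd14, a receptor for bacterial products, rose at 8 h by 2.41 ± 0.43 and at 12 h by 1.42 ± 0.35 (adjusted p of 0.0114 and 0.034 in the array-set fit and 0.818 and 0.536 in the planned fit of limma). With the replicate block Cd68 was called higher at 24 h, at 2.46 and at 0.33 with the larger offset. Of 6 brown or beige adipocyte markers 1 fell, and it was Cox8b itself, while Ucp1, the defining marker, did not pass the filter. Of 5 endothelial markers 1 passed the filter and of 7 striated muscle markers 2 did, and 0 of these were called.

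At 12 h, 9 of the 18 adipocyte markers fell in the array-set fit (median -0.64, with 2.4% of all genes called lower), while the planned fit called 0 and the replicate block 3. At 8 h, 2 of the 18 adipocyte markers fell in the array-set fit (median -0.39, with 0.561% of all genes called lower). The planned fit called 0 of them at 8 h. In bulk RNA, fewer cells of a type and less RNA per cell cannot be told apart, and the part of these markers in the respiratory chain result was not tested.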

How the data were processed

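The authors deposited 1 linear intensity per probe set and array for 45101 probe sets on 25 one-colour arrays, of which 21.6% were at or below 0. How probes were summarised, scaled and scanned is not given in the sources used here. For each time a table that the authors deposited holds a ratio, its fold change, its log10 value with an error score and a p-value, the arrays of a group being combined. The direction of that ratio was worked out from the values: the first intensity correlated with the mean of the LA arrays at 0.978 to 0.981 and with that of the CLA arrays at 0.919 to 0.946.

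Here negative values were set to 0, log2 was taken after adding an offset (0.984, the 25th percentile of all values, or 57.7, the 75th, as the larger offset), and the arrays were quantile normalised. The probe set with the highest mean stood for a gene, and genes above the array median on at least 2 arrays were kept (14428 of 18194). Of the probe sets, 34958 had 1 symbol in the platform annotation, 932 several and 9211 none. RefSeq lists all 82 subunit genes under the same symbols. The number of arrays limits the precision.

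Tests used R 4.3.3 and limma 3.58.1 (lmFit, eBayes, two-sided, Benjamini-Hochberg adjusted p under 0.05 over all genes tested) with 8 group means over all 25 arrays, and the scripts were tested on simulated data. The subunit genes, lists, rule for named genes and alternatives were chosen with earlier results of these data known. The list of tricarboxylic acid cycle enzymes, the array-set fit and the fits of the 12 and 24 h arrays alone were added after the data were seen. The planned design took array sets from average linkage clustering. Ward's clustering gives sets A (LA 4 h, LA 8 h and CLA 8 h replicates 1), B (all 8 replicates 2) and C. Set C holds LA 4 h and LA 8 h replicates 3, CLA 4 h replicate 1 and the replicates 4 of 12 h. Its mean intensities ran from 72.6 to 98.6, but LA 4 h replicate 1, at 77.1, is in set A. The other sets are D (CLA 8 h replicate 3 and replicates 3 of 12 and 24 h) and E (replicates 1 of 12 and 24 h). Named were, at 24 h, the 2 genes per complex with the smallest p in the planned fit, the Sdh genes, 5 isoform pairs and the highest difference per complex, and at other times up to 5 genes past the threshold. Others named were chosen after their values were seen.

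Pairing was checked from the correlation of deviations from the group means of same-numbered arrays. It was 0.50, 0.16, 0.31 and 0.56 at 12 h and 0.34, 0.26 and 0.28 at 24 h, so the numbers pair these arrays. At 8 h it was 0.31, 0.17 and 0.07, against at most -0.11, 0.06 and 0.04 with an array of another number. At 4 h it was -0.24 and 0.33, against at most 0.45 and 0.24. At neither time were genes counted pair by pair, although at 8 h the same number gave the highest correlation too. The numbers of these times did enter the replicate block on all arrays, and median differences between same-numbered arrays are given for 8 h.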

Additional observations from a re-analysis of the deposited data

Results flagged for a closer look

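In the groups of 4 arrays, those of 12 h, a gene or the median of a complex was picked out where its highest or lowest array lay far from the other 3. This held for 6 of the 64 groups examined. Chance alone gives about 1 in 20 in independent groups without ties. These groups share arrays, and for Ndufa4l2 the other 3 arrays were tied at the floor, so no excess is read from the count. Under CLA at 12 h, replicate 4 stood apart for Cox4i1 (12.29, next array 11.72), Uqcrq (11.34, next 10.54), Cox6a2 (7.09, next 4.75) and Ndufa4l2 (1.97, the others at the floor of -0.02), and replicate 1 stood apart for Ndufb3 (10.07, next 9.29). Under LA at 12 h, replicate 1 stood apart for Ndufa4l2 (1.87, the others at -0.02). Replicate 4 of CLA at 12 h is one of the 5 arrays of set C, and its mean intensity was 93.8. The part of array brightness in these values was not tested.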

How the results depend on the processing

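The planned fit called 0 subunit genes at each time and in the contrasts between 12 and 24 h, and also under each of the other settings listed with it, without each array in turn (0 to 0) and with the replicate block on all arrays (0); 4 h without CLA replicate 2 could not be fitted. Fits added after seeing the data gave more: the array-set fit 7 at 12 h and 40 at 24 h, and the pairing of the 12 and 24 h arrays as a replicate block 0 and 4, or 9 and 47 with a variance trend. For the gene lists that pairing called 6 of the 14 adipocyte markers that fell at 24 h, and 0 of the 10 tricarboxylic acid cycle enzymes. In the array-set fit at 24 h the count was 0 without a set term, 0 with the replicate block on all arrays, 21 with the sets as a random block, 1 on values as deposited, and 7 to 34 without 1 array. At 12 h it was 0 without a set term, 0 with the replicate block, 3 with the random block, 0 without set C, 25 with the larger offset, 11 with a minimum of 12 arrays above the median, 0 with median centring, 0 as deposited, 3 with the mean of probe sets, 19 with a variance trend and 0 to 14 without 1 array (0 without LA replicates 2 or 3 or CLA replicate 2, and 14 without LA replicate 1). At 8 h it was 11 with the larger offset, 4 with the minimum of 12 arrays, 1 with the mean of probe sets, 1 with all probe sets and 5 with a variance trend, and at 4 h 0 to 1 without 1 array. Over all 14428 genes the array-set fit with the larger offset called 770 at 8 h and 1281 at 12 h in either direction. Its main form called 261 and 677. For the other alternatives, and for the replicate block with a variance trend, the count over all genes is not given here. Uqcrq at 24 h became 0.30 with the mean of its probe sets. The median over the subunit genes at 4 h was -0.14 in the planned fit, -0.03 in the array-set fit and 0.16 with median centring, where all genes shifted by 0.21. At 24 h it lay between -0.63 and -0.45 under the 4 scalings, with 72 to 74 genes lower in every pair. The causes of these shifts were not tested. Dim genes such as Cox8b, Ndufb4 and Cox4i2 rest on signal near background.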
